A study of Mus musculus with 6 samples.

Results

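The cytosolic ribosomal protein genes were described in bEnd.3 cells given mitochondria and in control cells. Members were chosen by a rule on names that uses none of their values, but with earlier results of these data known. They are protein-coding genes of the mouse build GRCm38 whose symbol starts with Rpl or Rps followed by a digit or the letter p. The ribosomal S6 kinases and Rps19bp1 were left out. The rule found 84 of the 55335 gene identifiers in the files, of which 78 are core genes, 47 for the large and 31 for the small subunit, and 6 are the paralogs Rpl3l, Rpl7l1, Rpl10l, Rpl22l1, Rpl39l and Rps27l. A further paralog, Rps4l, is annotated as a pseudogene and was not a member. The core genes include Rps27rt, a retrotransposed copy of Rps27, and Rpl36al, a close copy of Rpl36a.

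The Mito_T cells were bEnd.3 cells of wild-type genotype incubated for 24 h with mitochondria isolated from primary mouse astrocytes and brought up in 100 µl of culture medium. The Ctrl cells were the same line given an equal volume of medium alone, and the labels name no control given a mock preparation of mitochondria. Each group had 3 libraries of strand-specific mRNA. All libraries come from this 1 line, brain endothelium of the mouse immortalised by the polyomavirus middle T antigen. Whether replicates are independent cultures is not stated, so p-values here reflect the spread among libraries, and that spread may be technical.

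The values are FPKM, fragments per unit of transcript length and of library size, and the depths implied by the lowest values were 21800000 to 27200000 fragments in the mitochondria libraries and 17000000 to 21100000 in the controls. The labelled cell type was only partly borne out by its markers: 7 of 14 endothelial markers were under 1 FPKM in every library, among them Cdh5, Pecam1 and Cldn5, whereas Cd34 and Eng were well expressed. Of 10 astrocyte markers, 6 were under 1 FPKM throughout, and Aqp4, Sox9 and Gjb6 were listed at 0 in every library. Summed marker levels were 162 to 175 FPKM in the mitochondria libraries and 140.4 to 148 FPKM in the controls for the endothelial list, and 42.1 to 48.2 against 26.5 to 63.3 FPKM for the astrocyte list. Gja1 and Aldoc made up most of the astrocyte sum in each library. For 10 fibroblast and mural markers the sums were 375 to 414 FPKM with mitochondria and 426 to 461 FPKM in controls. Of that list, Col1a1, a collagen chain, averaged 83.9 FPKM with mitochondria and 138 FPKM in controls (limma adjusted p = 0.00547), while Col3a1, Pdgfra and Acta2 had higher means with mitochondria and were not called. In the endothelial list, Cd34 averaged 80.1 FPKM with mitochondria and 60.3 FPKM in controls (limma adjusted p = 0.0265), while Flt1 and Kdr had lower means with mitochondria and were not called. The sum of 7 microglial markers was 182 to 208 FPKM with mitochondria and 224 to 272 FPKM in controls, nearly all of it Tmem119, with P2ry12 and Ptprc listed at 0 throughout. The part of cell state or makeup in the results was not tested. In such bulk samples, fewer cells of a kind and less RNA per cell cannot be told apart. Each change is the mitochondria mean less the control mean of log2(FPKM + 1), fitted for 12639 genes with limma, a linear model with variances moderated across genes, and a gene was called at a Benjamini-Hochberg adjusted p under 0.05 over all genes tested.

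The cytosolic ribosome is built from a small and a large subunit, each made of ribosomal RNA and of proteins that are mostly present in a single copy. The genes for these proteins are expressed in nearly every cell and their mRNAs are among the most abundant. Most of these mRNAs start with a C followed by a run of pyrimidines, the 5′ terminal oligopyrimidine tract, through which the kinase complex mTORC1 and the RNA-binding protein Larp1 control their translation. Translation was not measured here. Ribosomal protein genes also have large numbers of processed pseudogenes in mammalian genomes, whose sequence is close to that of the parent mRNA.

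Sequence at the annotated transcript start shows the pyrimidine tract in a minority of the core genes. RefSeq promoter windows of GRCm38.p6, covering 250 bases before to 50 bases after the annotated start, were matched for 58 of the 78 core genes. A transcript start with C and 4 further pyrimidines occurred in 14 of these 58 genes, or 24.1%, against 3.01% of all 27025 genes with a window. How exact the annotated starts are was not tested. The motif CTTTCC, searched on both strands, was in 51.7% of the core genes and in 29.3% of all genes, and CCGGAAG, the core of an ETS factor site, in 39.7% against 9.93%. TATAAA was in 10.3% of the core genes and in 15.7% of all. A pyrimidine tract can itself hold CTTTCC, so these counts overlap. These windows, 40 bases before and 20 after the start, show members described later, and the capitals mark the pyrimidine tract at the start. They were taken only from the 14 genes with such a start.
Rps6, chr4:86857348-86857407, minus strand: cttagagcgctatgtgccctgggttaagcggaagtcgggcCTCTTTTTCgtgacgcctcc
Rps10, chr17:27635225-27635284, minus strand: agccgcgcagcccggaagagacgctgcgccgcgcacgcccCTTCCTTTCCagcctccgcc
Rps18, chr17:33955646-33955705, minus strand: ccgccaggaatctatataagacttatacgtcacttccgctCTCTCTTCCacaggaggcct
Rplp2, chr7:141447611-141447670, plus strand: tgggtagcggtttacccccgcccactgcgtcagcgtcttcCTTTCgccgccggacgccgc
Rpl38, chr11:114668540-114668599, plus strand: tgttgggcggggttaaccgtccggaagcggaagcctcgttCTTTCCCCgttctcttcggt
Rps27, chr3:90213629-90213688, minus strand: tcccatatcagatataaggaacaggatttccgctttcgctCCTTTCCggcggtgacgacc
Rps27rt, chr9:114982720-114982779, minus strand: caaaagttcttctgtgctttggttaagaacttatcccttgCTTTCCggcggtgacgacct
The annotated transcript of the retrotransposed copy Rps27rt starts 1 base later in the tract than that of Rps27, lacks its first C, and shares the transcribed bases that follow in this window. Of the 31-base words in Rps27rt transcripts, 92.7% also occur in other genes.

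None of the 78 core genes was called changed by limma, where the background was 1.12% of all tested genes, 0.467% higher and 0.649% lower, while most of them were slightly higher in cells given mitochondria. The median log2 change of the core genes was 0.13, against -0.01 for all genes tested, and 69 of 78 had a positive change (88.5%, against 48.0% of all genes tested). At an unadjusted p under 0.05 there were 17 core genes, all higher with mitochondria, or 21.8%, where the background was 6.58% for higher and 7.32% for lower. In 22 core genes the 3 mitochondria libraries all lay above the 3 controls, or 28.2%, against a background of 9.62%. No core gene had all mitochondria libraries below the controls, where the background was 11.4%. Values of these genes vary together between libraries, so the counts are not those of independent genes. A median change of 0.13 corresponds to 1.09-fold, and the typical standard error of a single core gene was 0.07.

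Summed over the 78 core genes, the level was 12261, 12469 and 12226 FPKM in mitochondria replicates 1 to 3, and 12424, 11169 and 10634 FPKM in control replicates 1 to 3. The mitochondria libraries were close together, whereas control replicate 1 lay within their range and control replicates 2 and 3 lay below it. The means were 12319 ± 131 FPKM with mitochondria and 11409 ± 918 FPKM in controls (SD, n = 3 each), 7.97% higher with mitochondria, which is within 1 SD of the controls. As a share of all FPKM in a library, the core genes made up 4.21%, 4.28% and 4.26% in the mitochondria libraries and 4.17%, 3.88% and 3.78% in the controls. On this scale the groups did not overlap, by a narrow margin at control replicate 1. No test was made of the sum or the share.

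**Figure D1:**
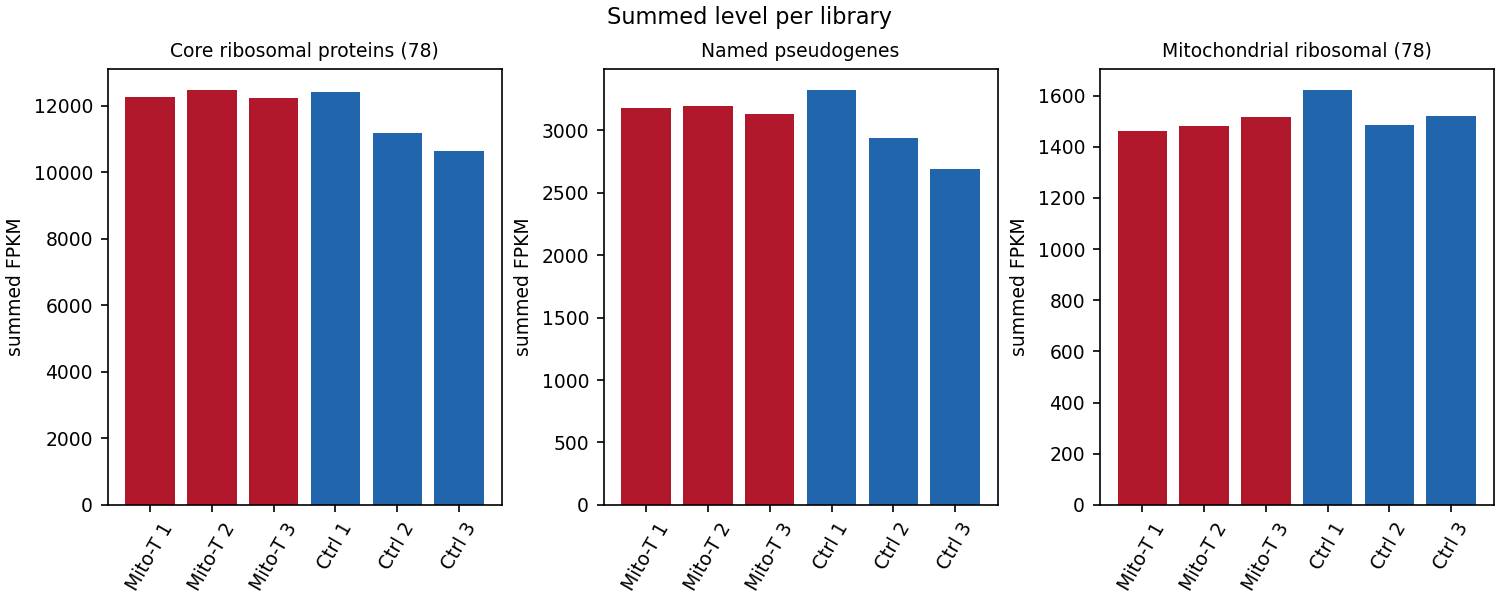
Summed FPKM per library (bars, vertical axes in FPKM) of the core ribosomal protein genes, their named pseudogenes and the mitochondrial ribosomal protein genes, with the mitochondria libraries (red) left of the controls (blue). Control replicate 1, at 12424 FPKM in the left panel, reaches the level of the mitochondria libraries, and the other controls do not.

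The same library pattern ran through the single genes. Among controls, replicate 1 was the highest in 74 of 78 core genes and replicate 3 the lowest in 63. Control replicate 1 had the highest value of all 6 libraries in 31 core genes, and it exceeded the mitochondria mean in 41. The median deviation of the core genes from their own mean over 6 libraries was 0.06, 0.07 and 0.04 on the log2 scale in mitochondria replicates 1 to 3, and 0.07, -0.09 and -0.16 in control replicates 1 to 3. The coefficient of variation between libraries of a group had a median of 3.44% with mitochondria and 8.68% in controls, and it was larger in the controls for 67 of the 78 genes. Control replicate 1 also had the lowest implied depth, 17000000 fragments, and the highest summed FPKM over all genes. The part of depth in the pattern was not tested.

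**Figure D2:**
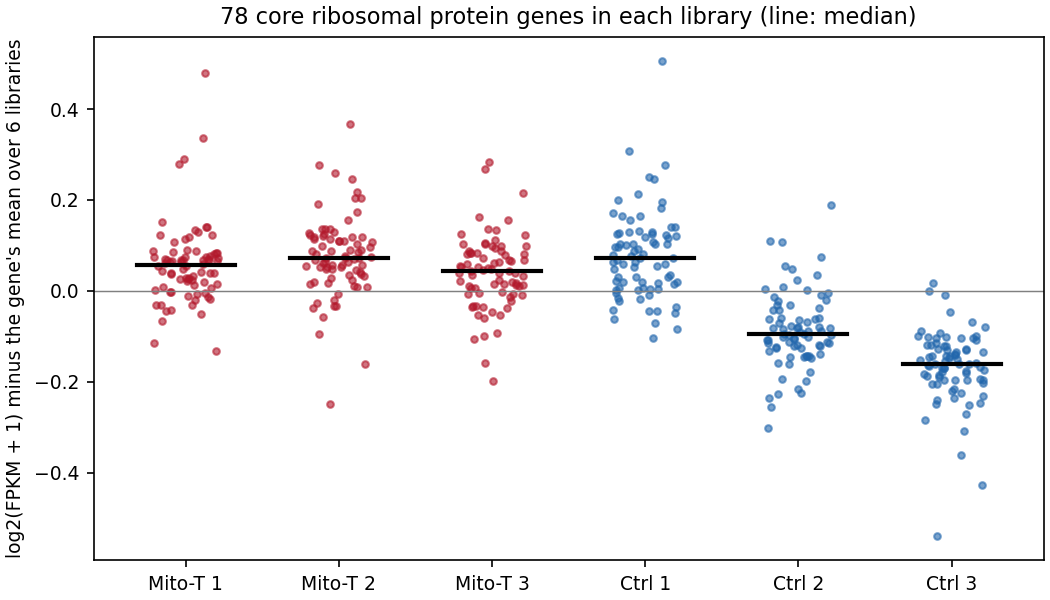
Each point is 1 of the 78 core genes in 1 library, placed by its log2(FPKM + 1) minus its own mean over 6 libraries (vertical axis), and black lines mark medians. The medians of the 3 mitochondria libraries and of control replicate 1 lie at 0.04 to 0.07, and those of control replicates 2 and 3 at -0.09 and -0.16.

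The counts for the family moved with single control libraries. Without control replicate 1, all 78 core genes had a positive change with a median of 0.19, and 48 had an unadjusted p under 0.05 (background 14.6%), and 61 had mitochondria libraries all above the controls (background 16.2%). Without control replicate 3, the median was 0.07, 59 genes were positive, 9 had an unadjusted p under 0.05 (background 16%), and 24 had mitochondria libraries above the controls (background 16.1%) and 2 below them (background 20.6%). Limma called none of the core genes in any of the 6 fits without a library. The smallest adjusted p of a core gene over those fits was 0.0659, without control replicate 1.

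Rps12, a small-subunit protein, had the smallest p of the family. It was at 72.9, 80.4 and 73.8 FPKM in cells given mitochondria, and at 61.5, 53.4 and 58.7 FPKM in controls. All mitochondria libraries lay above all controls. The group means were 75.7 ± 4.07 and 57.9 ± 4.11 FPKM (SD, n = 3 each), which gave a log2 change of 0.38 (standard error 0.07, limma adjusted p = 0.0661). Rps12 passed the threshold under quantile normalization (limma adjusted p = 0.0409) and when libraries were scaled to the total of genes other than ribosomal protein and mitochondrial DNA genes (limma adjusted p = 0.0437). Of the 31-base words in Rps12 transcripts, 69.3% also occur in other genes, mostly pseudogenes.

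Rps9, another protein of the small subunit, had 105, 118 and 119 FPKM with mitochondria, and 99.0, 85.4 and 91.2 FPKM in controls. The groups did not overlap, although mitochondria replicate 1 was near control replicate 1. The fitted log2 change was 0.31 (SE of 0.08; limma adjusted p = 0.142), and 17.0% of its words are shared with other genes. Rpl13 of the large subunit was the steadiest of these, at 110, 112 and 112 FPKM with mitochondria, and 100.4, 97.6 and 93.1 FPKM in controls. Limma put the change at 0.19 with an SE of 0.05 (adjusted p = 0.143). Rpl27a, also of the large subunit, was at 61.6, 65.8 and 63.2 FPKM with mitochondria, and at 59.2, 53.2 and 52.0 FPKM in controls, without overlap (log2 change 0.21, limma adjusted p = 0.208). Rps10, one of the genes with a pyrimidine start shown above, averaged 82.0 ± 2.89 FPKM with mitochondria and 73.2 ± 2.96 FPKM in controls (SD, n = 3 each, limma adjusted p = 0.251), also without overlap.

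The core genes on the X chromosome are Rpl10, Rps4x, Rpl39 and Rpl36a, a grouping made after the values were seen, so its values are a description. Rpl10, one of the last proteins to join the large subunit, had 88.7, 96.2 and 88.4 FPKM with mitochondria, and 81.4, 72.6 and 75.4 FPKM in controls (log2 change 0.25, SE 0.06, limma adjusted p = 0.143). Rps4x was at 247, 243 and 247 FPKM with mitochondria, and at 229.8, 203 and 197 FPKM in controls (log2 change 0.23, limma adjusted p = 0.211). Both were without overlap between groups. Rpl39, which lines the peptide exit tunnel, had 68.6, 75.5 and 69.5 FPKM with mitochondria, and 67.2, 55.3 and 55.5 FPKM in controls (log2 change 0.26, limma adjusted p = 0.251). Rpl36a overlapped, at 43.3, 46.04 and 45.8 FPKM with mitochondria, and 45.9, 42.0 and 34.3 FPKM in controls. The median log2 change was 0.24 for these 4 genes, 0.12 for the other 74 core genes and 0.02 for 407 tested X-linked genes outside the family. None of the 4 was called.

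The genes of the 3 proteins of the ribosomal stalk, which recruits translation factors, all lay higher in the mitochondria libraries without overlap. The background for this was 9.62% of all genes tested, and the share among core genes was 28.2%. The stalk genes were grouped after the values were seen, so their values are a description. Rplp0, the base of the stalk, had 314, 315 and 329 FPKM with mitochondria, and 295.5, 271 and 279 FPKM in controls. Its partner Rplp1 was the most abundant core transcript per length, at 753, 785 and 779 FPKM with mitochondria, and 729, 656 and 660.5 FPKM in controls. Rplp2 was at 86.2, 101 and 85.7 FPKM with mitochondria, and at 84.9, 72.6 and 78.8 FPKM in controls. The log2 changes of the 3 stalk genes were 0.18 to 0.21, with limma adjusted p-values of 0.223 to 0.368, so the separation was present but narrow and uncalled.

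Rpl5 and Rpl11, which bind the 5S ribosomal RNA and can inhibit Mdm2 when ribosome assembly is disturbed, showed overlapping groups. Rpl5 was at 83.3, 84.4 and 82.4 FPKM with mitochondria, and at 84.4, 74.9 and 68.2 FPKM in controls. Rpl11 was at 57.2, 77.5 and 55.6 FPKM with mitochondria, and at 58.1, 62.0 and 52.2 FPKM in controls. The limma adjusted p-values were 0.4996 for Rpl5 and 0.730 for Rpl11.

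Rps6, the substrate of the S6 kinases downstream of mTORC1, hardly differed. Its values were 143, 153 and 151 FPKM with mitochondria, and 159, 139 and 135 FPKM in controls, so that limma put the change at 0.05 with an SE of 0.07 (adjusted p = 0.812). Rps19, the gene most often mutated in Diamond-Blackfan anaemia in humans, was at 43.02, 42.1 and 40.1 FPKM with mitochondria, and at 42.6, 40.8 and 36.2 FPKM in controls. Both genes had their highest or second highest value in control replicate 1. Rps3, at the mRNA entry of the small subunit, averaged 88.9 ± 1.28 FPKM with mitochondria and 82.0 ± 6.65 FPKM in controls, and Rps7 85.9 ± 1.14 and 77.6 ± 8.39 FPKM (SD, n = 3 each, limma adjusted p = 0.489 and 0.455).

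Rplp0, Rps18 and Rpl13a are common reference genes for quantitative PCR, also grouped after the values were seen. Differences between their changes were not tested. Rplp0 and Rps18 were without overlap between groups (background 9.62%), with log2 changes of 0.18 and 0.15 (SE 0.06 for each). Rps18 averaged 174 ± 4.41 FPKM with mitochondria and 157 ± 9.35 FPKM in controls (SD, n = 3 each, limma adjusted p = 0.333). Rpl13a was at 139.6, 124.9 and 141 FPKM with mitochondria, and at 150.4, 124.9 and 122 FPKM in controls, a log2 change of 0.03 (limma adjusted p = 0.916).

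**Figure D3:**
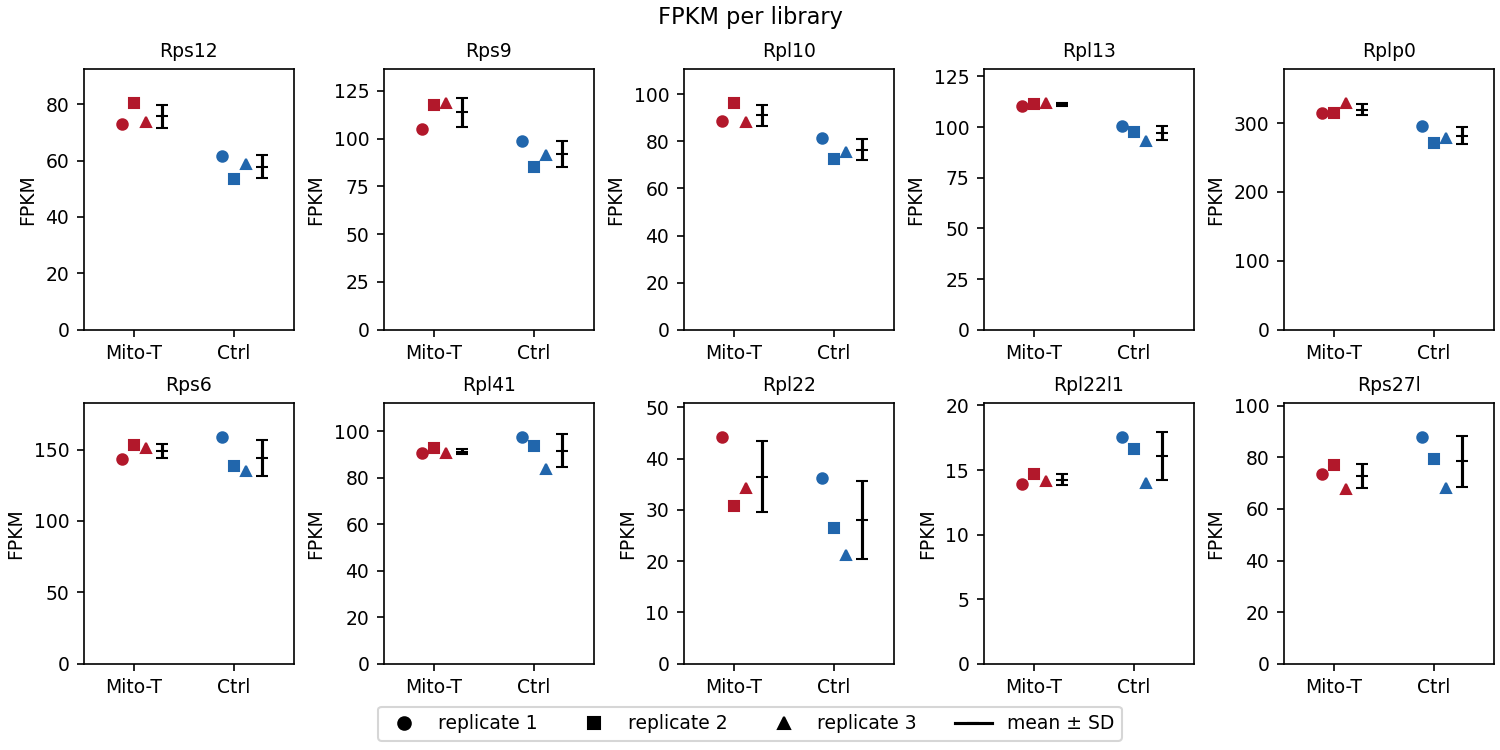
FPKM per library (vertical axes from 0) of 8 core genes and the paralogs Rpl22l1 and Rps27l, mitochondria libraries (red) left of controls (blue), with replicate number as symbol and the mean ± SD beside. Rps12, Rps9, Rpl10, Rpl13 and Rplp0 have groups that do not overlap, and the other 5 genes overlap.

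At the other end of the order, 9 core genes had negative changes, none of them beyond the spread between libraries. Rps25 was at 32.8, 33.8 and 31.8 FPKM with mitochondria, and at 48.7, 31.5 and 28.4 FPKM in controls, so its change of -0.10 rests on control replicate 1. Without that replicate every core gene, Rps25 included, had a positive change. Rps27rt averaged 45.9 ± 4.61 FPKM with mitochondria and 49.1 ± 7.60 FPKM in controls, and Rpl29 36.3 ± 0.830 and 37.8 ± 4.86 FPKM (SD, n = 3 each). Rpl27, at 169 ± 11.5 FPKM with mitochondria and 174 ± 16.5 FPKM in controls, and Rpl38, known in mouse embryos for its role in translating Hox mRNAs, at 219 ± 6.89 and 224 ± 29.6 FPKM, were also close to level. Rpl41, which encodes the shortest ribosomal protein, differed least with Rpl7a, at 90.7, 92.7 and 90.6 FPKM with mitochondria, and 97.5, 93.7 and 83.99 FPKM in controls (log2 change -0.00, SE 0.07, limma adjusted p = 0.991).

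A few members varied widely between libraries, and they were picked after their values were seen. Rpl10a was at 62.5, 61.2 and 82.8 FPKM with mitochondria, and at 83.3, 74.0 and 53.1 FPKM in controls. Rpl26 was highest in mitochondria replicate 1, at 173 FPKM, and Rpl11 in mitochondria replicate 2. Rpl22 had the largest log2 change of the core genes, 0.38, but with an SE of 0.20 (limma adjusted p = 0.463). It was at 44.2, 30.8 and 34.3 FPKM with mitochondria, and at 36.2, 26.5 and 21.3 FPKM in controls, so the groups overlapped, and its range over the 6 libraries was 2.07-fold, the largest of the core genes.

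**Figure D4:**
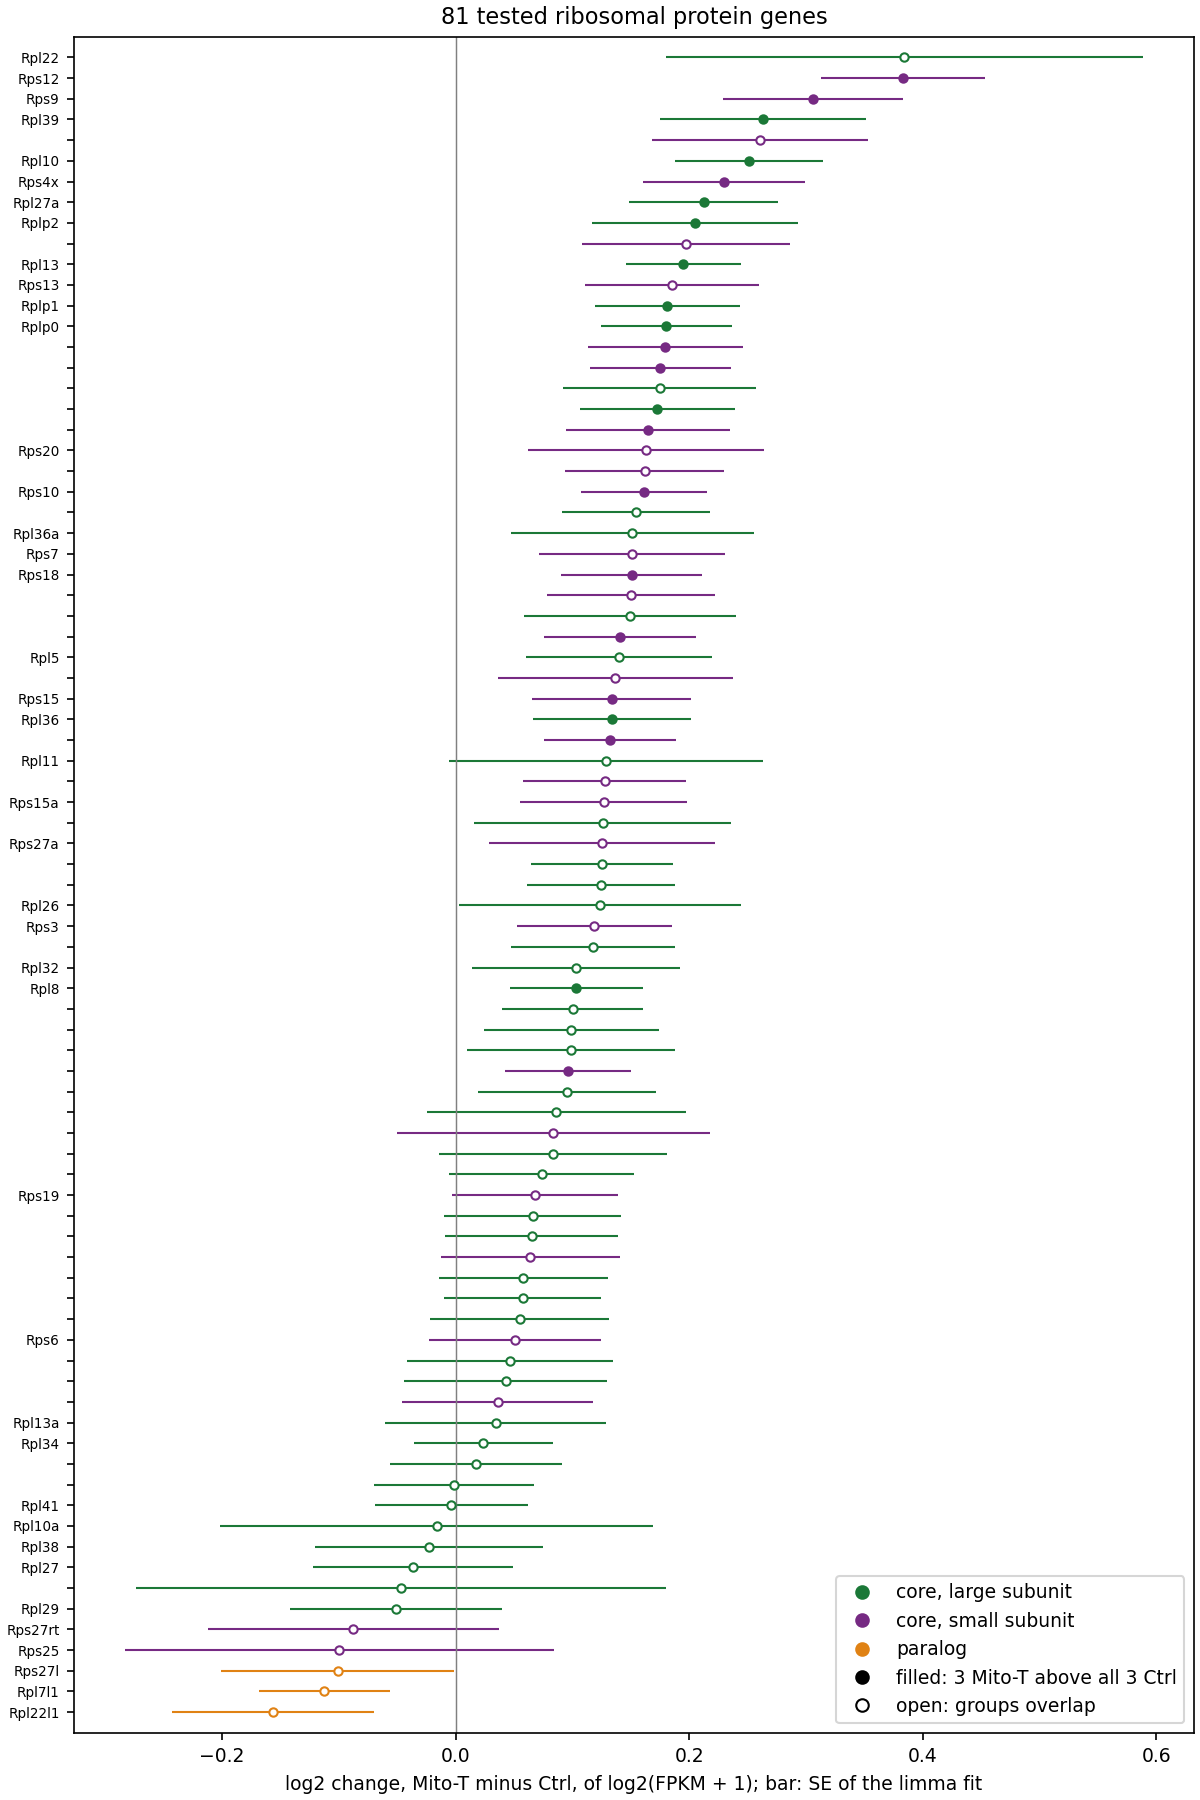
Log2 change, mitochondria minus control, with the SE of the limma fit (horizontal axis) for the 78 core genes and the 3 tested paralogs, sorted, with names for most of the genes described in the text. Filled points mark the 22 genes whose mitochondria libraries all lie above the controls, and the 3 paralogs have changes between -0.16 and -0.10.

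Of the 31 small-subunit genes, 29 had positive changes with a median of 0.14, and 12, or 38.7%, had mitochondria libraries all above the controls, where the background was 9.62%. Of the 47 large-subunit genes, 40 had positive changes with a median of 0.10, and 10, or 21.3%, had mitochondria libraries all above the controls. The difference between subunits was not tested. The summed level was 4357 ± 47.3 FPKM with mitochondria and 3955 ± 325 FPKM in controls for the small subunit, and 7962 ± 84.4 and 7454 ± 596 FPKM for the large subunit (SD, n = 3 each).

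Levels per length differed widely within the core family, although the proteins are made for the same particle. The mean over 6 libraries had a median of 105 FPKM and ran from 24.99 FPKM in Rps15a to 727 FPKM in Rplp1, a 29.1-fold range. After Rplp1 came Rpl8, Rpl36, Rps15 and Rpl32, and the lowest were Rps15a, Rpl34, Rps20, Rpl22 and Rps13. Rpl8 had 580.4, 600.1 and 595 FPKM with mitochondria, and 577, 524 and 553 FPKM in controls. Rps15a had 26.3, 27.0 and 25.04 FPKM with mitochondria, and 26.3, 22.5 and 22.9 FPKM in controls. Rplp1 was above Rpl8 in every library. Across the 78 genes, the level had a Spearman's rho of -0.63 with the annotated exonic length, as a description over genes that share libraries and annotation.

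Shared sequence bears on every value of this family. A median of 44.6% of the 31-base words in the protein-coding transcripts of a core gene also occurred in transcripts of other genes and this reached 94.1% in Rpl36, and 28 core genes shared more than 50% of their words. The FPKM then depend on how reads fitting several genes were placed, a setting that the sources here do not give. In the 19 core genes with under 25% shared words, 18 had a positive change and the median was 0.12, and in the 28 genes with over 50% shared, 25 were positive and the median was 0.13. Rpl8, with 8.05% shared words, also had groups without overlap (log2 change 0.10, limma adjusted p = 0.486). The rho between shared words and log2 change was 0.03 across 78 genes, and that with the level was 0.37.

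**Figure D5:**
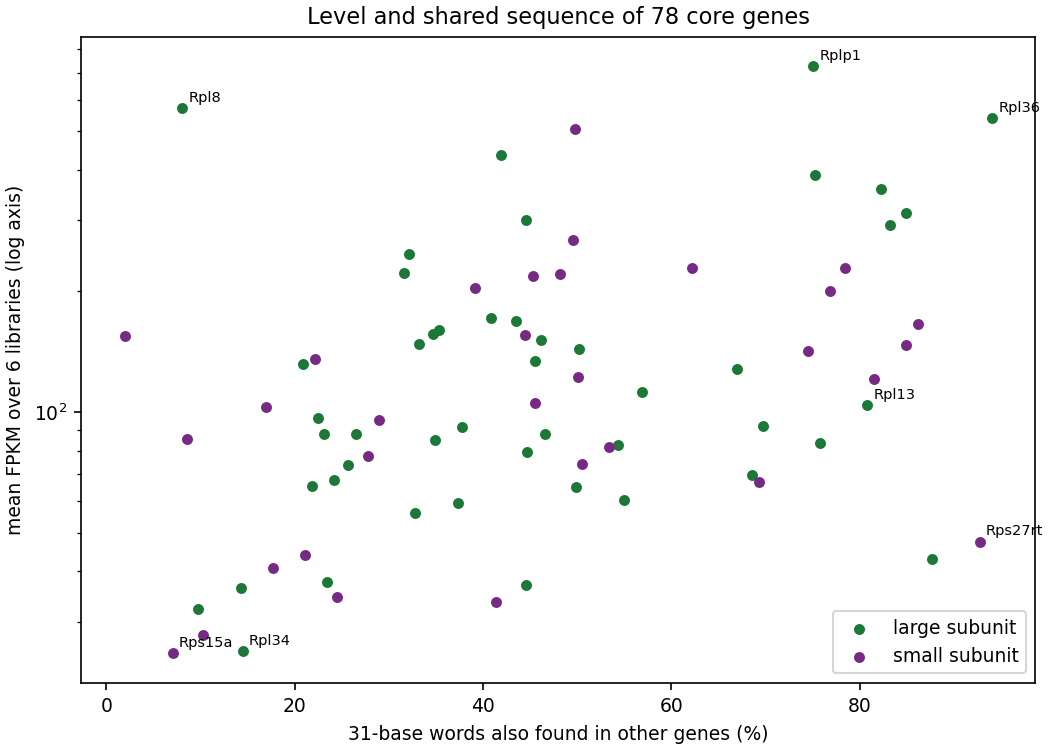
Mean FPKM over 6 libraries (vertical, log axis) of the 78 core genes against the share of their 31-base words that other genes also hold (horizontal, in %), coloured by subunit. Genes of high level lie at both ends, such as Rpl8 at 8.05% and Rpl36 at 94.1% shared words.

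Pseudogenes named after a member had the same order of control libraries as the core genes. The 283 in the annotation summed to 3178, 3196 and 3132 FPKM in the mitochondria libraries, and to 3324, 2941 and 2694 FPKM in the controls. Control replicate 1 was again the highest control, here above all mitochondria libraries. Of the 90 pseudogenes expressed highly enough to be tested, none was called, where the background was 1.12%. At an unadjusted p under 0.05 there were 9, all higher, or 10%, where the background was 6.58% for higher and 7.32% for lower. Positive changes were seen in 78, or 86.7% against 48.0% of all genes tested, with a median of 0.09. The most abundant was Rpl31-ps8 at 242, 221 and 242 FPKM with mitochondria, and 248, 243 and 190.4 FPKM in controls, more than its parent Rpl31, which averaged 99.4 ± 1.19 FPKM with mitochondria and 93.3 ± 9.31 FPKM in controls. Reads of parent and pseudogene could not be told apart here.

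All 3 tested paralogs had negative changes, and control replicate 1 was the highest of the 6 libraries for all 3. Without that replicate the log2 changes were -0.09 for Rpl22l1, -0.09 for Rpl7l1 and -0.02 for Rps27l. Rpl22l1, which in mice is raised when Rpl22 is lost, was at 13.9, 14.7 and 14.2 FPKM with mitochondria, and at 17.5, 16.7 and 13.97 FPKM in controls (log2 change -0.16, SE 0.09, limma adjusted p = 0.486). Rpl7l1 had 33.9, 34.8 and 36.3 FPKM with mitochondria, and 39.3, 35.8 and 38.6 FPKM in controls (log2 change -0.11, limma adjusted p = 0.436). Rps27l, a target of p53, was at 73.6, 76.9 and 67.8 FPKM with mitochondria, and at 87.8, 79.4 and 67.9 FPKM in controls (log2 change -0.10, limma adjusted p = 0.712). The groups of all 3 overlapped and none was called or had an unadjusted p under 0.05. The other 3 paralogs were not tested: Rpl10l, known from the testis, and Rpl39l, known from male germ cells, were listed at 0 in every library, and Rpl3l, known from heart and skeletal muscle, stayed under 0.1 FPKM.

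Ratios of a paralog to its partner do not depend on how libraries are scaled. Rps27l amounted to 58.8%, 58.1% and 54.4% of Rps27 in the mitochondria libraries, and to 69.3%, 69.1% and 62.8% in the controls. Rpl7l1 amounted to 27.6%, 29.2% and 33.2% of Rpl7 with mitochondria, and to 35.5%, 33.5% and 37.1% in controls. Rpl22l1 amounted to 31.4%, 47.7% and 41.3% of Rpl22 with mitochondria, and to 48.5%, 62.8% and 65.6% in controls. The ratio was lower in all mitochondria libraries than in all controls for these 3 and for Rps27rt to Rps27, and it overlapped for Rpl36al to Rpl36a, at 87.6% ± 7.22 with mitochondria and 89.4% ± 9.50 in controls (SD, n = 3 each). Each of the 4 had an exact two-sided permutation p of 0.1, the smallest that 3 against 3 libraries allow, and 0.125 adjusted over the 5 ratios. For Rpl22l1 to Rpl22 the margin was narrow, with control replicate 1 at 48.5% and mitochondria replicate 2 at 47.7%.

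Ribosomal proteins whose symbols lie outside the rule also had positive changes. Rack1, a scaffold on the small subunit, had 77.1, 78.7 and 70.7 FPKM with mitochondria, and 66.98, 62.6 and 59.8 FPKM in controls, without overlap (log2 change 0.25, SE 0.07, limma adjusted p = 0.150). Rpsa averaged 172 ± 3.60 FPKM with mitochondria and 154 ± 14.6 FPKM in controls. Fau, which encodes a ribosomal protein fused to a ubiquitin-like protein, averaged 252 ± 7.41 FPKM with mitochondria and 238 ± 22.6 FPKM in controls (SD, n = 3 each). All 4 genes of this list had positive changes and none was called. Rps27a, the member that encodes a ubiquitin fusion, was at 77.4, 79.7 and 74.4 FPKM with mitochondria, and at 82.3, 66.6 and 64.3 FPKM in controls.

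The other genes of ribosome supply and control had no called member in limma either. Of 21 translation factors and other genes known for pyrimidine-tract mRNAs, 15 had positive changes (71.4%, against 48.0% of all genes tested), with a median of 0.05. At an unadjusted p under 0.05, 2 were higher and 1 lower, together 14.3%, close to the background of 13.9%. Eef1a1, the elongation factor that brings transfer RNA to the ribosome, was at 1230, 1220 and 1241 FPKM with mitochondria, and at 1122, 1088 and 1034 FPKM in controls, without overlap (log2 change 0.19, limma adjusted p = 0.204). Of 62 assembly factors tested, 44 had negative changes, and the median was -0.03. Positive changes made up 29.0%, against 48.0% of all genes tested. Control replicate 1 was the highest of the 6 libraries for 34 of the 62. Median deviations from the gene mean were 0.085, 0.026 and -0.023 in control replicates 1 to 3, and -0.030 to -0.005 in the mitochondria libraries. At an unadjusted p under 0.05, 4 were lower, or 6.45% against a background of 7.32%, and none was higher, against 6.58%. In 12 of them, or 19.4%, all mitochondria libraries lay below the controls, where the background was 11.4%. Nob1, the nuclease that finishes the small-subunit RNA, was at 5.81, 5.97 and 6.05 FPKM with mitochondria, and at 7.49, 7.39 and 6.83 FPKM in controls (log2 change -0.24, limma adjusted p = 0.134).

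Of 8 chaperones and partners of single ribosomal proteins, 7 had negative changes, and Tsr2, which escorts Rps26, was at 4.60 ± 0.428 FPKM with mitochondria and 5.63 ± 0.559 FPKM in controls (SD, n = 3 each, limma adjusted p = 0.298). RNA polymerase I genes with Myc were split evenly, 8 positive and 8 negative of 16, and Rrn3, an initiation factor of that polymerase, was at 19.1 ± 1.29 and 21.3 ± 0.753 FPKM (limma adjusted p = 0.368). Among 27 genes of mTORC1 and translational control, 12 changes were positive and 15 negative. Deptor, an inhibitor of mTOR, was at 2.22, 1.94 and 2.13 FPKM with mitochondria, and at 2.88, 3.59 and 2.74 FPKM in controls, below all controls (log2 change -0.39, limma adjusted p = 0.138). Ascc3, a helicase that splits collided ribosomes, and Snhg15, a host of small nucleolar RNA, had the smallest p of the ribosome rescue and host RNA lists, with limma adjusted p-values of 0.337 and 0.454. These lists had 6 positive changes of 17 and 3 of 11.

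The mitochondrial ribosomal protein genes, which serve the ribosome inside mitochondria, are given for comparison. Their summed level was 1461, 1480 and 1518 FPKM with mitochondria, and 1622, 1485 and 1521 FPKM in controls. None of the 78 was called in limma, 2 were higher and 5 lower at an unadjusted p under 0.05, both shares below the backgrounds of 6.58% and 7.32%, and 25 had positive changes against 69 of the 78 core cytosolic genes. The median was -0.04. Control replicate 1 was the highest of the 6 libraries for 53 of the mitochondrial and 31 of the cytosolic genes. Without control replicate 1, 44 of the mitochondrial ribosomal genes were positive with a median of 0.03. Without control replicate 3, limma called 1 of them and 84 of all 12639 genes tested. The difference between these families was not tested.

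Outside the family, the tested protein-coding genes whose values across the 6 libraries were most like the mean of the core genes included Apex2 and S100a10, with Pearson's r of 0.993 and 0.988 on the log2(FPKM + 1) scale. This is a description over 6 libraries, taken as the top of all tested genes. S100a10, an annexin partner, was at 157, 160.2 and 160 FPKM with mitochondria, and at 159, 144 and 137 FPKM in controls, the same order of libraries within controls as in the ribosomal protein genes.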

How the data were processed

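Per the file headers, the authors deposited 1 value per library for 55335 gene identifiers without naming a unit. They were taken as FPKM, computed by the authors before deposit, since they are not whole, do not sum to a constant, and StringTie is among the tools. Per the submitters' processing notes, the tools were StringTie 1.3.1c, STAR 2.5.3a and FastQC 0.11.5, with GRCm38 (mm10); roles, settings, annotation release and the strand setting of quantification are not given in the sources used here. Symbols came from GENCODE M21, and 55154 identifiers matched.

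Depth was read from genes with 1 transcript, as the FPKM times length at which low values cluster. Only 20.2% to 22.6% of low values were whole multiples to within 0.02, and a count test was therefore not run. The filter kept genes reaching 1 FPKM in 3 of the 6 libraries. They were analysed on the log2(FPKM + 1) scale using R 4.3.3 and limma 3.58.1, by group alone, with trend and robust options, two-sided p and Benjamini-Hochberg adjustment over all tested genes. The code was tested on simulated data for this comparison: in 20 simulations over 12639 genes the share recovered was 65.25% at 1.5-fold and 87.5% at 2-fold, and false calls made up 4.48%. Changes as small as those of this family were not simulated.

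Shared 31-base words were counted in GENCODE M21 transcripts, in the sense direction. The members, lists and the rule for genes named were chosen with earlier results of these data known. The rule took the 6 core genes with the smallest p in each direction, the 5 highest and lowest levels, the paralogs with partners and a fixed set of well-known members; of other lists, called members or the one with the smallest p. Other genes named were chosen after their values were seen. Alternatives were other pseudocounts, filters, scalings, leaving out each library, blocking on replicate number, and a plain empirical Bayes fit. Some genes that the rule names are not reported here.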

Additional observations from a re-analysis of the deposited data

How the results depend on the processing

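The median log2 change of the core genes stayed positive in all 16 alternatives, between 0.07 and 0.19, and 57 of the 78 core genes kept a positive change in every one of them. Core genes called remained 0 except for 1, Rps12, under quantile normalization and under scaling to genes other than ribosomal protein and mitochondrial DNA genes. The number of genes called among all tested was 141, and it was 13 with no filter, 56 with the replicate block, and 15 to 84 without 1 library. The replicate block left 0 core genes called, with a smallest adjusted p of 0.120. The labels do not say that the numbers pair the libraries. Deviations of same-numbered libraries correlated at 0.10, 0.05 and 0.30, and those of differently numbered libraries at -0.20 to 0.12. Whether the numbers pair the libraries was not tested. The count of core genes at an unadjusted p under 0.05, 17, ranged from 5 to 48 without 1 library (background 9.87% to 16.0%). That of core genes with mitochondria libraries all above the controls, 22, ranged from 22 to 61 (background 12.4% to 16.2%). Both were highest without control replicate 1. The first share was below the background without control replicate 2, at 6.41% against 11.1%, and without control replicate 3, at 11.5% against 16.0%. Without mitochondria replicate 2 it was 7.69% against 9.96%, and in the other fits it was above the background. These counts without 1 library were chosen after seeing the data. The difference in summed core level, 7.97%, was 4.43% to 13.0% without 1 library and 7.77% to 8.93% under other scalings. Of 688 results for 43 named genes, 686 kept their side of the threshold and the other 2 were the Rps12 calls. The cause of these moves was not tested. Standard errors of single core genes had a median of 0.07, against a median change of 0.13, and which sizes of change this design can call below 1.5-fold was not tested.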
